A study of Mus musculus with 11 samples.

Results

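Chromosome 19 is the smallest autosome of the mouse, and 710 of the 21534 gene regions in the deposited lamin B1 DamID table lie on it. They were taken as every row placed on that chromosome and read in order of start position, singly and in bins of 1 Mb. The chromosome was chosen by measured values of these data, namely the large share of its regions that scored higher in oligodendrocytes (OL) than in oligodendrocyte precursor cells (OPC). The difference between OL and OPC scores is therefore a description here: a region is named as called higher or lower where its limma adjusted p over the whole table is under 0.05, and nothing is concluded from these calls. The level of each score against 0 was not itself used in the choice and is tested. It comes from the same libraries, however, and is not independent of the difference.

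In the study, OPC were isolated from the cortex of C57BL/6 mice at postnatal day 7, transduced for 1 day with a lentivirus carrying Dam-LMNB1 or Dam without a partner, and kept for 72 h in a medium labelled for differentiation (OL) or for proliferation (OPC). The 4 groups were OL Dam-LMNB1 (libraries 18, 19 and 20), OL Dam (libraries 12, 13 and 14), OPC Dam-LMNB1 (libraries 8, 9 and 10) and OPC Dam (libraries 2 and 4). All groups are titled WT, with T3 in the titles of the OL libraries and PF in those of the OPC libraries. OL against OPC is therefore also T3 against PF. Every group carried a virally expressed Dam enzyme in C57BL/6 cells. The labels do not say which promoter drove the enzyme, whether animals were pooled, or whether libraries came from separate cultures, so the spread between libraries may be technical.

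The nuclear lamina is a meshwork of lamin filaments under the inner nuclear membrane, and lamin B1 is one of its main proteins. Long stretches of chromatin touch it, and in many mammalian cells these hold few active genes and are rich in A and T, whereas regions dense in housekeeping genes lie away from it. In DamID, the bacterial methyltransferase Dam fused to lamin B1 methylates adenine in GATC sites near the lamina, and free Dam marks DNA that is simply accessible. OPC are the proliferating precursors that leave the cell cycle and make myelin as they become oligodendrocytes. DamID measures contact and not transcription, so the labelled cell type could not be checked against the expression of its markers.

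In each score, 1 Dam-LMNB1 library is set against the Dam libraries of the same condition as a pool. Scores lie on both sides of 0 and have no stated log base, so differences are in score units. Where a score exceeds 0, methylation by Dam-LMNB1 is taken to exceed that by Dam. A difference between conditions can come from either enzyme, and in bulk cells a change in every cell cannot be told apart from a change in the mix of cells. Most regions span a gene with flanks of 10000 bp upstream and 2000 bp downstream, so exons, introns and UTRs share 1 value. The 710 regions had a median width of 25.3 kb, and 499 of them (70.3%) overlapped another, so neighbours share reads. They included 655 protein-coding genes, 31 miRNA genes and 12 tRNA genes.

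Promoters of genes at the ends of the scale show what kind of DNA the scores describe. Each is the RefSeq stretch (GRCm38.p6) from 250 bases before to 50 bases after the annotated start, printed 5′ to 3′ with GATC, the site that Dam methylates, in capitals. Olfr1450, an olfactory receptor gene, had the highest OPC score of the chromosome (chr19:12953341-12953640, plus strand). Ndufv1, which encodes a subunit of mitochondrial complex I, had the lowest OPC score (chr19:4012706-4013005, minus strand). Cep55, whose protein acts in the final separation of dividing cells, had the largest OL minus OPC difference (chr19:38054734-38055033, plus strand). Ins1, an insulin gene of rodents, had the most negative difference among genes with a listed promoter (chr19:52264047-52264346, plus strand). Opalin, which encodes a membrane protein of myelin (chr19:41077064-41077363, minus strand), and Tcf7l2, which encodes a Wnt-pathway transcription factor needed for oligodendrocyte differentiation (chr19:55741560-55741859, plus strand), are shown as lineage genes. Myrf, which encodes the transcription factor that switches on myelin genes, is named below without a promoter.
Olfr1450: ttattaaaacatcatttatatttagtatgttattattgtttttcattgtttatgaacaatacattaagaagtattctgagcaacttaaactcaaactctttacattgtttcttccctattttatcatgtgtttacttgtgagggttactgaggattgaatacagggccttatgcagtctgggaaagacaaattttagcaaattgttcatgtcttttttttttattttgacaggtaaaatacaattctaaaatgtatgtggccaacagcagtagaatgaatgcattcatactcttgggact
Ndufv1: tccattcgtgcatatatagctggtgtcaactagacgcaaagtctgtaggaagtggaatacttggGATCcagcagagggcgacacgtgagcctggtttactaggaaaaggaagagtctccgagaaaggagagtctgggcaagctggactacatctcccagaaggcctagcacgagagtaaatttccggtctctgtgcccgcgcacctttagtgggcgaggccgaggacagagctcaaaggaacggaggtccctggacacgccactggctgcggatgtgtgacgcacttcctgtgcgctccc
Cep55: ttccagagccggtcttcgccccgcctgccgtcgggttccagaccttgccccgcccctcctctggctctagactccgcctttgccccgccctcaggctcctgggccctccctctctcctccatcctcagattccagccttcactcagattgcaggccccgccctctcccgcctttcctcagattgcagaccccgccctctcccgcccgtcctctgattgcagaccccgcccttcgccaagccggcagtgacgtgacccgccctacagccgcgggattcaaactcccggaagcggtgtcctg
Ins1: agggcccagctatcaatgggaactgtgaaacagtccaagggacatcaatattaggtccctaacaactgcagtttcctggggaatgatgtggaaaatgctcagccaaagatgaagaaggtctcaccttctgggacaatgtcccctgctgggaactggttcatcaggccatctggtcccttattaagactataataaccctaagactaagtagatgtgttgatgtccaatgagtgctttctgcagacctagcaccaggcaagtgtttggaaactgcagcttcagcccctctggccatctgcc
Opalin: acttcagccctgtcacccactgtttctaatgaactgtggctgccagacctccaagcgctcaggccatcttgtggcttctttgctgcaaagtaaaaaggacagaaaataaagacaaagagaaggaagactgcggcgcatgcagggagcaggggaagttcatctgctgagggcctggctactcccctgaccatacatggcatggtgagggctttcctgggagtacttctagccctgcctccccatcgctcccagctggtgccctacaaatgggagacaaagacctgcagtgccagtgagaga
Tcf7l2: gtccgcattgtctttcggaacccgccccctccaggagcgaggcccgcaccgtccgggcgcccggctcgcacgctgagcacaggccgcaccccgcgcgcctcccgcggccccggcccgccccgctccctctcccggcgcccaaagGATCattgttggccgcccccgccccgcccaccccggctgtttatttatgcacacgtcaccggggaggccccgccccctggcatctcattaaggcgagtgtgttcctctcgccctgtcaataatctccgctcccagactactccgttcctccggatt

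Low GC content went with high scores in these 6 examples only in part. The Olfr1450 promoter was 29.7% G or C and held 0 GATC and 0 CG pairs, whereas that of Tcf7l2 was 70.0% G or C and held 1 GATC and 34 CG pairs. The Ins1 promoter, at 48.3%, held 0 CG pairs, and the Opalin promoter, at 54.3%, held 4. GATC reads the same on both strands and was present in 48.0% of all 27025 promoters of the RefSeq table and in 47.8% of the 548 promoters matched on chromosome 19. The absence of GATC in a window of 300 bases says nothing about contact, because a score covers the whole region. Among matched genes, the 121 that scored above 0 in all 6 libraries had a median promoter GC content of 38.3%, and the 403 that scored below 0 in all 6 had one of 61.0%. GATC was present in 51.2% of the first set and in 47.6% of the second. Across these 548 genes, promoter GC content and the OPC score had a Pearson's r of -0.673 and a Spearman's rho of -0.492, while GC content and the OL minus OPC difference had a Pearson's r of 0.00124. Genes are not independent replicates, and neighbouring genes share both base composition and reads.

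The 6 libraries resembled each other closely on this chromosome. Over its 710 regions, the 9 OL-to-OPC pairs of libraries had a Pearson's r of 0.974 to 0.981, and the 6 pairs from the same condition had one of 0.990 to 0.995. The mean chromosome 19 score was -1.02, -1.11 and -1.10 in OL libraries 18, 19 and 20, against -1.24, -1.27 and -1.23 in OPC libraries 8, 9 and 10. OL library 18 stood apart with the highest mean and the smallest SD over regions (1.34, against 1.39 to 1.42 in the other 5), and counts are also given below without it where they moved. Read depth is unknown, so the values carry no interval for counting error.

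Most of chromosome 19 scored below 0 in both conditions. In OL, 143 of the 710 regions (20.1%) scored above 0 and 546 (76.9%) below, at a limma adjusted p under 0.05 over all regions of the table, against 25.9% above and 70.9% below over the whole table. In OPC, 139 regions (19.6%) scored above 0 and 559 (78.7%) below, against 25.5% and 71.4% over the whole table. The median score was -1.65 in OL and -1.85 in OPC. In all 6 libraries alike, 135 regions were above 0 and 546 below, and only 29 (4.08%) took both signs. The share of regions above 0 was 22.4%, 21.1% and 21.3% in OL libraries 18, 19 and 20, and 20.6%, 20.1% and 20.1% in OPC libraries 8, 9 and 10. The rest of the table had 28.5%, 27.0% and 27.5% in the same OL libraries and 27.5%, 27.1% and 27.1% in the same OPC libraries. The share on chromosome 19 minus that of the rest was -6.04 ± 0.17 percentage points in OL and -6.94 ± 0.0242 in OPC (SD, n = 3 each). The difference was negative in 6 of 6 libraries (mean -6.49 ± 0.50, SD, n = 6), with a two-sided exact sign-flip permutation p of 0.0312, the smallest that 6 libraries allow. Libraries of a condition share their Dam pool and correlate closely, so they are not 6 independent measurements, and the p says little beyond the shared sign. The share above 0 is also not independent of the choice of chromosome. In the rest of the table, 26.6% of regions with an OPC score from -4 to -1 were called higher in OL, against 12.2% of those from 0.5 to 4. By the share of regions above 0, chromosome 19 was 15th of the 20 chromosomes from the top in each condition. Chromosome 19 was also gene-dense, with 12.2 regions per Mb, against 7.73 on chromosome 10 and 14.1 on chromosome 11. Chromosome 11 had the smallest share of regions above 0 in OL (10.4%) and in OPC (11.7%) of all 20 chromosomes in the table.

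**Figure D1:**
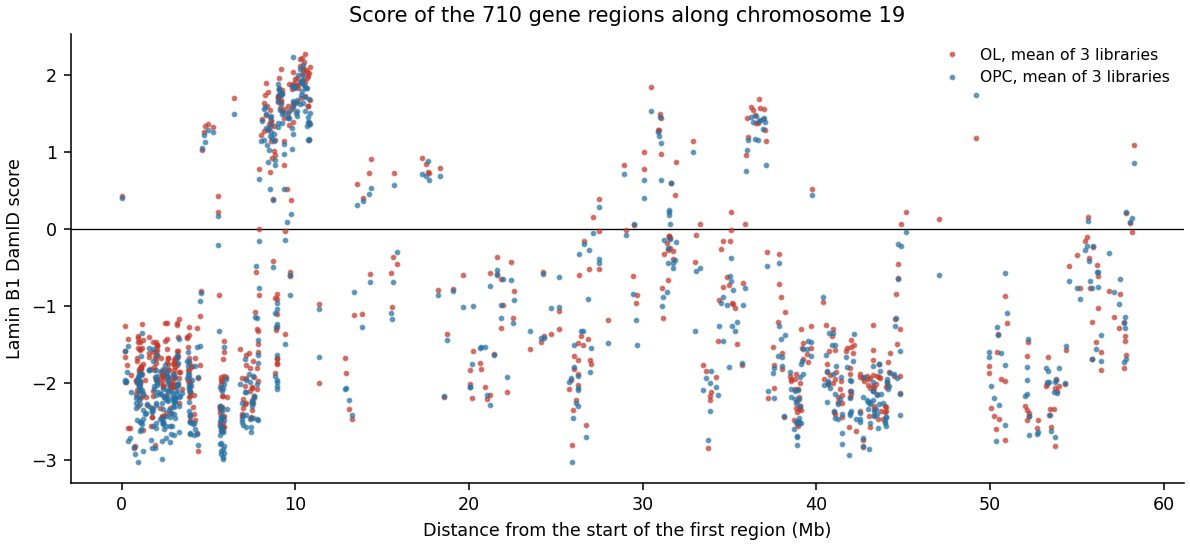
Mean lamin B1 DamID score (vertical axis, score units) of each of the 710 regions against its distance from the start of the first region (horizontal axis, Mb), with OL means in red and OPC means in blue (3 libraries each). High scores come in a few blocks, the densest between 8 and 11 Mb from the first region, and both conditions trace the same blocks.

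Regions on the same side of 0 lay next to each other. Stretches of at least 3 regions in a row on 1 side in all 6 libraries numbered 9 above 0, with 118 regions, and 15 below 0, with 529 regions. The longest above 0 held 41 regions from Lpxn to Olfr1505 (chr19:12788608-13921972), with a median score of 1.899 in OL and 1.66 in OPC. The longest below 0 held 180 regions from Ighmbp2 to Hrasls5 (chr19:3257075-7641238), with a median of -1.86 in OL and -2.17 in OPC. A further 87 regions from Cnnm1 to Itprip (chr19:43430435-47929299) formed another stretch below 0. Neighbouring regions had OPC scores with a Pearson's r of 0.882 over 709 pairs, and of 0.839 over the 353 pairs that did not overlap and so shared no sequence.

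Of the 118 regions in the stretches above 0, 101 belonged to 5 gene families arranged in tandem: olfactory receptor, Ms4a, Cyp2c, Slc22a and lipase genes. The stretch of 4 regions from Anxa1 to Tmc1 (chr19:20371433-20964202) held none of them. All 62 olfactory receptor regions, which encode odorant receptors of nasal sensory neurons, scored above 0 in OL and in OPC, with medians of 1.83 in OL and 1.63 in OPC. Of 17 Ms4a regions, a family of membrane proteins that includes the B-cell marker Ms4a1 (CD20), 15 scored above 0 and 1 below in each condition. Of 15 Cyp2c regions, which encode drug- and lipid-metabolising cytochrome P450 enzymes of the liver, 14 scored above 0 and 1 below in each condition. Of 6 lipase regions (Lipo1, Lipf, Lipk, Lipn, Lipm and Lipa), 5 scored above 0 in each condition, and the exception was Lipa, the lysosomal acid lipase. Slc22a genes, which encode organic ion transporters, were split, with 7 of 9 above 0 in OL and 6 of 9 in OPC. The placement of reads between near-identical copies is not given, so values of single members of these families are uncertain.

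**Figure D2:**
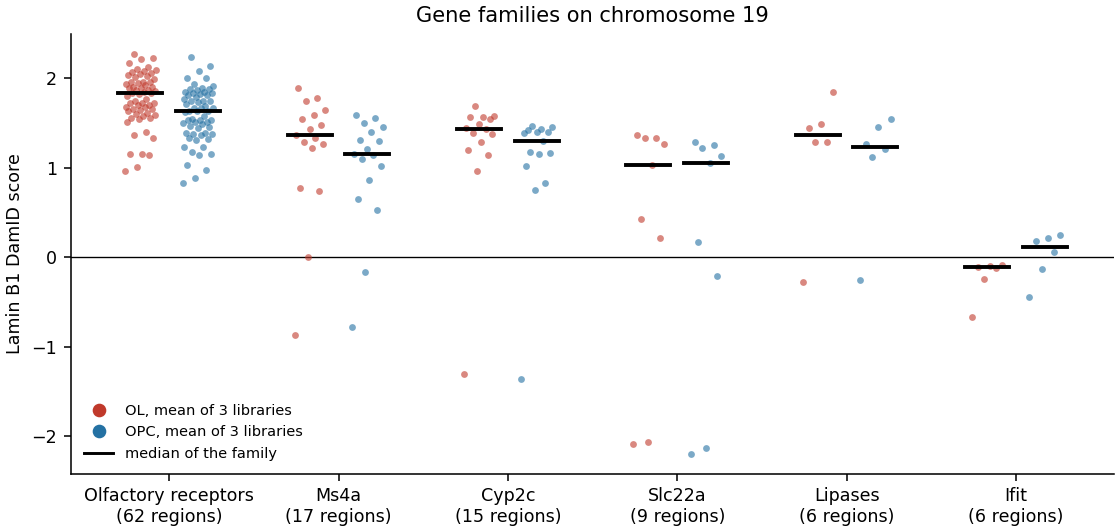
Mean lamin B1 DamID score of each region (vertical axis, score units) in 6 gene families, with OL (red, left) and OPC (blue, right) beside each other and a bar at the family's median. The 62 olfactory receptor regions all lie above 0, while the 6 Ifit regions lie near 0 with OL below OPC.

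The highest scores belonged to these families. Olfr1490 had OL scores of 2.27, 2.19 and 2.36, against OPC scores of 1.94, 1.28 and 1.37, so its OL libraries were all above its OPC libraries, which were themselves widely spread. Olfr1450 had OL scores of 1.73, 2.16 and 2.23, against OPC scores of 2.22, 2.39 and 2.11, and its libraries overlapped. Ms4a4a scored 1.91, 1.88 and 1.89 in OL and 1.46, 1.57 and 1.47 in OPC, with no overlap. Ins1 stood as a lone high gene in its neighbourhood. It scored 1.22, 1.40 and 0.93 in OL and 1.84, 1.60 and 1.77 in OPC, and it was one of 2 regions above 0 in all 6 libraries that were called lower in OL.

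The lowest scores belonged to genes used in most cells. Ndufv1 had OL scores of -2.28, -2.33 and -2.31, against OPC scores of -3.23, -2.91 and -2.97 (limma adjusted p against 0 of 2.59e-10 in OL and 1.05e-10 in OPC). Its OL libraries all lay above its OPC libraries, and both sets lay far below 0. Snord118, the U8 small nucleolar RNA of ribosomal RNA processing, scored -3.07, -2.65 and -2.95 in OL and -2.69, -2.90 and -2.83 in OPC, and its libraries overlapped. Other regions with a mean under -2.80 in both conditions were Suv420h1, a histone H4 methyltransferase gene, Chka, a choline kinase gene, Mgea5, which encodes the enzyme that removes O-GlcNAc, Mrpl11, of the mitochondrial ribosome, and Cdc37l1, a co-chaperone gene. All 27 listed housekeeping and splicing genes scored below 0 in OL and in OPC, against 76.9% and 78.7% of the chromosome, with medians of -2.26 in OL and -2.46 in OPC.

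The OL minus OPC difference, on which the chromosome was chosen, was above 0 in 545 of 710 regions (76.8%), against 63.8% of the whole table. Its median was 0.17 on chromosome 19 and 0.09 in the rest of the table, with a range from -0.58 to 1.07. At a limma adjusted p under 0.05 over all 21534 regions, 234 regions (33.0%) were called higher in OL and 36 (5.07%) lower, against 23.0% higher and 10.9% lower over the whole table. By the adjusted p-value that the authors deposited, only 20 were higher and 1 lower, so most regions called here did not pass it. Among the 6 fits that left out 1 library, the higher count ran from 145 without OPC library 9 to 188 without OL library 18. The lower count ran from 22, without OL library 19 or OPC library 9, to 42 without OL library 18, and was 23 without OPC library 8. The median difference was 0.41 among the higher regions and -0.32 among the lower ones, against a median SD between the 3 libraries of 0.107 in OL and 0.0961 in OPC. In 316 regions (44.5%) all OL libraries exceeded all OPC libraries and in 64 (9.01%) all were below them, against 33.5% and 15.4% over the whole table. Setting each library to the same mean and SD left 152 higher and 69 lower, so that 68.8% of the calls were higher in place of 86.7%, and the share over all regions was 50.5% in place of 67.9%.

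Most regions called higher had scores below 0 throughout, at the rate of the chromosome itself. Of the 234, 181 (77.4%) scored below 0 in all 6 libraries, against 76.9% of all 710, 39 above 0 in all 6 and 14 took both signs. Of the 36 called lower, 31 were below 0 in all 6, 2 above and 3 mixed. Among regions with an OPC score from 0.5 to 4, 35 of 124 on chromosome 19 (28.2%) were called higher and 2 (1.61%) lower, against 12.2% higher and 18.8% lower in the rest of the table. Among regions with an OPC score from -4 to -1, 173 of 485 (35.7%) were called higher and 19 (3.92%) lower, against 26.6% and 5.50% in the rest. These shares use the contrast that chose the chromosome, so nothing is read from them. Chromosome 10 had a like share, with 318 of its 984 regions (32.3%) called higher and 72 (7.32%) lower, and chromosome 11 had 379 of 1681 (22.5%) higher and 160 (9.52%) lower.

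**Figure D3:**
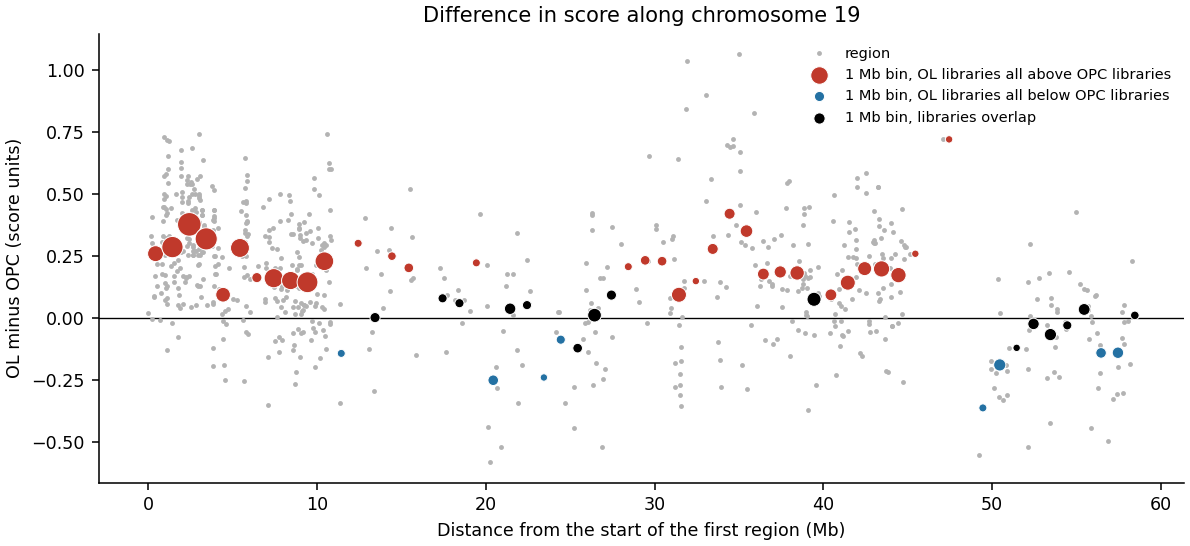
OL minus OPC difference in score (vertical axis, score units) of each region (grey) and of each 1 Mb bin (coloured, larger for more regions) against distance from the start of the first region (horizontal axis, Mb). Red bins, in which all 3 OL libraries exceed all 3 OPC libraries, number 33 and fill the first 11 Mb and the stretch around 35 Mb, and the 8 blue bins, with all OL libraries lower, lie beyond 11 Mb.

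The difference was spread unevenly along the chromosome. Of 56 bins of 1 Mb with a region, 43 had a higher mean score in OL and 13 a lower one, and in 33 and 8 of them the libraries did not overlap. Neighbouring regions that did not overlap had differences with a Pearson's r of 0.33 over 353 pairs. The zones below were drawn after the values were seen and have no test. In the 257 regions of the bins starting at 3 to 10 Mb (chr19:3056555-11027963), nearest the centromere, the mean score was -1.80 ± 0.07 in OL and -2.08 ± 0.04 in OPC (SD, n = 3 each). There, 125 regions (48.6%) were called higher and 1 (0.389%) lower, against 33.0% and 5.07% of the chromosome and 23.0% and 10.9% of the table. Without OPC library 9, 75 were higher, and at the same mean and SD 71 were higher and 6 lower. At that scaling, 21.4% of the chromosome was called higher and 9.72% lower, which is also the base for the zones that follow. The bin at 5 Mb held the most regions, 54, of which 36 (66.7%) were called higher. Its means were -1.79, -1.93 and -1.93 in OL libraries 18, 19 and 20, against -2.25, -2.30 and -2.23 in OPC libraries 8, 9 and 10.

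The bins starting at 33 to 40 Mb (chr19:33135744-41004535) hold the lipase, Ifit and Cyp2c genes and several cell division genes. Their 74 regions had a mean score of -0.12 ± 0.02 in OL and -0.35 ± 0.005 in OPC (SD, n = 3 each). Of these, 31 (41.9%) were called higher and 6 (8.11%) lower, against 33.0% and 5.07% of the chromosome. The lower count was 2 or 3 without any 1 library other than OL library 18, and 8 without that one. At the same mean and SD for each library the counts there were 26 higher and 11 lower. The bin at 37 Mb, which holds Kif11, Hhex, Cyp26c1 and Cyp26a1, had means of -0.95, -1.07 and -1.07 in OL and -1.46, -1.43 and -1.47 in OPC, a difference of 0.42. All 3 OL means of that bin lay above all 3 OPC means.

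The distal bins, starting at 52 to 61 Mb (chr19:52254296-61330908), had a lower mean in OL as a whole, although the bins at 58 and 61 Mb were slightly higher in OL, by 0.03 and 0.01, with overlapping libraries. Their 67 regions had a mean of -1.46 ± 0.05 in OL and -1.37 ± 0.03 in OPC (SD, n = 3 each). Of these, 2 (2.99%) were called higher and 14 (20.9%) lower, against 33.0% and 5.07% of the chromosome. The lower count was 7 without OL library 20, 9 without any 1 OPC library, 16 without OL library 18, and 23 at the same mean and SD, and the higher count was 0 to 2. In the bin at 53 Mb, which holds Add3, Mxi1 and Smc3, the means were -1.98, -2.04 and -2.04 in OL and -1.81, -1.85 and -1.83 in OPC, and the libraries did not overlap. In the gene-poor bins starting at 14 to 32 Mb, 86 regions at 4.53 per Mb had means of -1.03 in OL and -1.06 in OPC. Of these, 14 (16.3%) were called higher and 13 (15.1%) lower. The higher count was 7 without OPC library 9, and 9 without OL library 18 or OPC library 10. At the same mean and SD, 9 were higher and 18 lower. The 121 regions of the bins at 41 to 47 Mb, which hold the Scd genes, had means of -1.89 in OL and -2.05 in OPC. Of these, 32 (26.4%) were called higher and 1 (0.826%) lower, both smaller shares than those of the chromosome. There, 16 were higher without OPC library 9, 21 without OPC library 10, and 16 were higher and 10 lower at the same mean and SD.

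Cell division and replication genes held several of the largest differences. Of 16 listed genes on the chromosome, 9 were called higher in OL and 0 lower, against 23.0% and 10.9% over the whole table and 33.0% and 5.07% of the chromosome, and the 9 remained in number in each fit that left out 1 library. At the same mean and SD for each library, 9 were higher and 1 lower. The list also holds the polycomb ring finger genes Pcgf5, one of the 9, and Pcgf6, which was not called, and without them 8 of 14 were higher. The median difference of the 16 was 0.46, or 0.34 at the same mean and SD. Cep55 had OL scores of -0.58, -0.83 and -0.78, against OPC scores of -1.86, -1.98 and -1.54, a difference of 1.07 ± 0.12 (SE). The 2 sets were far apart, and both remained below 0 (limma adjusted p of 1.25e-05 in OL and 5.41e-09 in OPC).

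Kif20b, which encodes a kinesin of cytokinesis, scored 0.37, 0.51 and 0.44 in OL, against -0.35, -0.46 and -0.40 in OPC. Every OL library was above 0 (limma adjusted p = 8.55e-06) and every OPC library below it (1.75e-05). Hells, which encodes a helicase of heterochromatin upkeep, scored 0.15, 0.04 and -0.02 in OL, against -0.75, -0.85 and -0.71 in OPC, so its OL scores straddled 0. Kif11, the spindle kinesin gene, scored -1.33, -1.37 and -1.67 in OL, against -2.06, -2.14 and -2.27 in OPC, with no overlap. Pola2, a subunit gene of DNA polymerase alpha, Cdca5, which encodes the cohesin regulator sororin, Incenp, of the chromosomal passenger complex, and Fen1, a flap endonuclease gene, were higher by 0.45 to 0.56, each from a mean under -2 in OPC. Smc3, a cohesin subunit gene, was not called, with a difference of -0.19 (OL -2.33, -2.58 and -2.50, OPC -2.35, -2.24 and -2.27). Pola2, Cdca5, Incenp and Fen1 lie in the bins at 3 to 10 Mb, where 48.6% of regions were called higher. Those bins also hold listed genes that were not called. Kif20b, Pcgf5, Kif11, Cep55 and Hells lie in the bins at 33 to 40 Mb, where 41.9% were. Whether the differences of these genes go with their position was not tested.

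**Figure D4:**
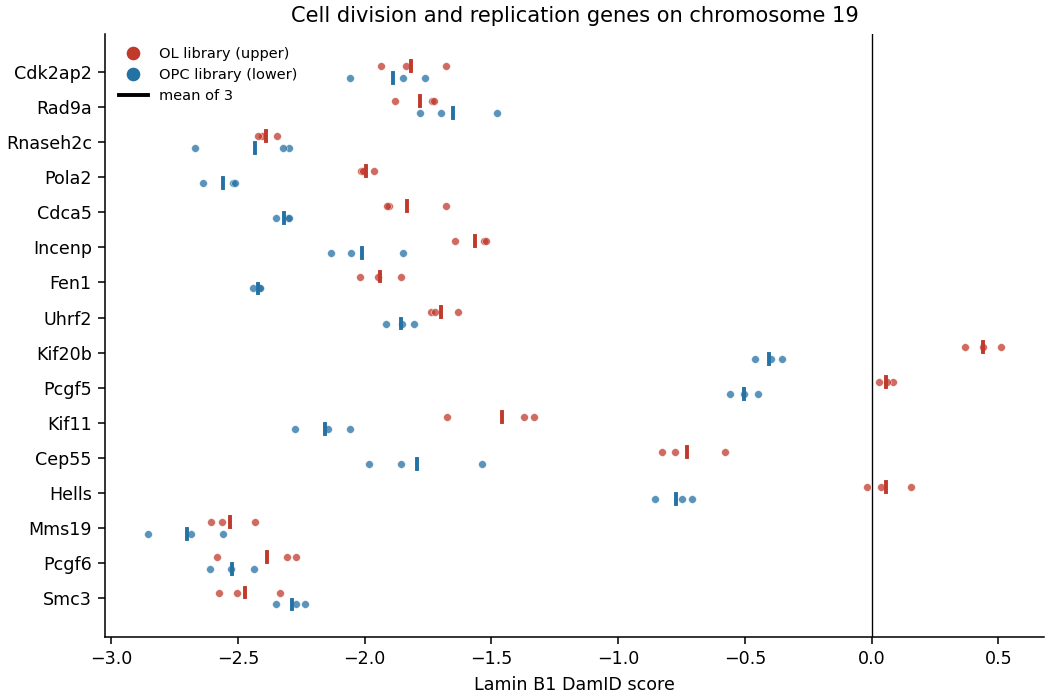
Lamin B1 DamID score (horizontal axis, score units) of the 16 listed genes (cell division and replication, with Pcgf5 and Pcgf6) in order of position on the chromosome, with the 3 OL libraries (red, upper) and the 3 OPC libraries (blue, lower) and a bar at each mean. Kif20b and Pcgf5 have every OL point above 0 and every OPC point below it, and Cep55 has the widest gap.

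Of the 710 regions, 6 scored above 0 in every OL library and below 0 in every OPC library. This was close to the share of the whole table, 161 of 21534 (0.748%). The reverse held for 0 regions, against 116 of the whole table (0.539%). The 6 were Slc22a8, Kif20b, Pcgf5, Pde6c, Sorcs3 and Sorcs1, and Kif20b had the largest OL score among them. Sorcs1 and Sorcs3 encode sorting receptors of neurons and lie alone in a gene-poor stretch. Sorcs1 scored 0.23, 0.09 and 0.06 in OL, against -0.60, -0.59 and -0.59 in OPC (difference 0.72 ± 0.07, SE). Its OL level above 0 had a limma adjusted p of 0.0336, and the p was 0.149 without OL library 18. The limma adjusted p also rose above 0.05 without OL library 19 (0.0501), OPC library 9 (0.0529) or OPC library 10 (0.0508), and with OL libraries alone (0.0816). Sorcs3 scored 0.30, 0.17 and 0.20 in OL, against -0.05, -0.04 and -0.02 in OPC, and the OPC level was not separable from 0 (limma adjusted p = 0.464). Pcgf5, a polycomb ring finger gene, scored 0.03, 0.08 and 0.06 in OL, against -0.50, -0.56 and -0.45 in OPC, and its OL level was likewise not separable from 0 (limma adjusted p = 0.253).

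Pde6c and Slc22a8 also crossed 0 without OL library 18, but, as for Sorcs1, the call of their OL level was then lost. Pde6c, a phosphodiesterase gene of cone photoreceptors, scored 0.51, 0.01 and 0.13 in OL, against -0.33, -0.38 and -0.40 in OPC. Slc22a8, which encodes the organic anion transporter OAT3, scored 0.41, 0.06 and 0.20 in OL, against -0.24, -0.14 and -0.24 in OPC. In each, library 18 was the highest of the OL libraries, and the OL level lost its call without it (limma adjusted p of 0.211 for Pde6c and 0.0555 for Slc22a8). The OPC level of Slc22a8 lost its call without OPC library 8 (limma adjusted p = 0.0526) or OPC library 10 (0.0543). The Slc22a8 region overlaps that of Slc22a6, and the Pde6c region that of Rbp4, so these neighbours share reads.

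Genes of the oligodendrocyte lineage, myelin and its lipids had low scores in both conditions. All 19 listed genes scored below 0 in OL and in OPC, as did 76.9% of the chromosome in OL and 78.7% in OPC, with medians of -2.18 in OL and -2.18 in OPC. Opalin scored -1.84, -1.77 and -1.85 in OL, against -1.74, -1.70 and -1.57 in OPC. Its OL libraries all lay slightly below its OPC libraries, a difference of -0.15 that was not called. At the same mean and SD for each library the difference was -0.27, and after quantile normalization -0.28. Opalin was called lower in both of these scalings. Tcf7l2 scored -2.43, -2.67 and -2.67 in OL, against -2.63, -2.67 and -2.70 in OPC, and was among the lowest of the list in each condition with overlapping libraries. Myrf scored -1.55, -1.67 and -1.69 in OL, against -1.86, -1.98 and -2.05 in OPC, with no overlap.

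Of these 19 genes, 3 were called higher and 0 lower, against 23.0% and 10.9% over the whole table. Their median difference of 0.10 was -0.06 at the same mean and SD for each library, where 1 was higher and 3 lower, so the direction of the list depended on the scaling. Carns1, the carnosine synthase gene, had the largest difference of the 19, 0.42, with OL scores of -2.07, -2.36 and -2.13, against OPC scores of -2.52, -2.66 and -2.64. Dagla, an endocannabinoid-forming lipase gene, differed by 0.36, and Myrf, whose region overlaps that of Dagla, by 0.33. Neither Myrf nor Dagla was called at the same mean and SD.

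The desaturase genes of lipid synthesis were not called on the scores as deposited. Scd2, the stearoyl-CoA desaturase gene that predominates in brain, scored -1.83, -2.34 and -2.37 in OL, against -2.40, -2.45 and -2.58 in OPC, with OL library 18 well above the other OL libraries. Scd1, Scd3 and Scd4 differed by -0.08 to 0.13. Fads1, of the fatty acid desaturase cluster, scored -2.17, -2.33 and -2.32 in OL, against -2.09, -2.09 and -2.17 in OPC, all OL libraries being slightly lower. Fads1 was called lower at the same mean and SD for each library (-0.29) and after quantile normalization (-0.31). Fads2 and Fads3 differed by 0.20 and 0.22 with overlapping libraries.

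**Figure D5:**
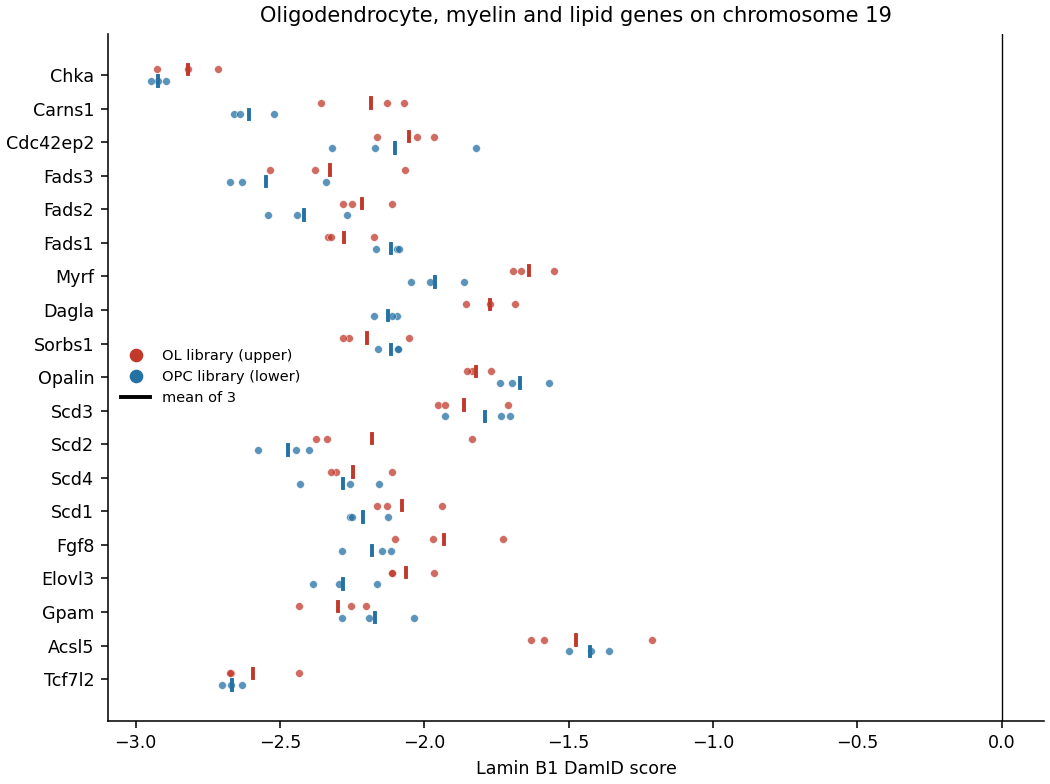
Lamin B1 DamID score (horizontal axis, score units) of 19 oligodendrocyte, myelin and lipid genes in order of position on the chromosome, with the 3 OL libraries (red, upper) and the 3 OPC libraries (blue, lower) and a bar at each mean. All points lie below 0, and Carns1 has the largest difference between the means.

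Some housekeeping genes and both listed nuclear long noncoding RNA genes were called higher in OL, from very low levels. Of 27 housekeeping and splicing genes, 11 (40.7%) were called higher and 0 lower, against 33.0% and 5.07% of the chromosome and 23.0% and 10.9% of the table, with 6 higher without OPC library 9, 7 without OL library 18, OPC library 8 or OPC library 10, and 5 at the same mean and SD. Most of these genes lie in the bins at 3 to 10 Mb, where 48.6% of regions were called higher. Ndufv1, at 0.73, had the largest difference of the list. Banf1, which encodes a DNA-binding protein that bridges chromatin and the lamina, scored -2.26, -2.51 and -2.58 in OL, against -3.01, -2.80 and -3.17 in OPC, with no overlap. Malat1, a noncoding RNA of nuclear speckles, scored -1.75, -1.85 and -1.91 in OL, against -2.33, -2.31 and -2.43 in OPC. Its neighbour Neat1, the scaffold of paraspeckles, scored -2.21, -2.48 and -2.28 in OL, against -2.77, -2.89 and -2.65 in OPC. Both noncoding RNA genes had every OL library above every OPC library and were called higher in each scaling and each fit without 1 library. Both lie in the bin at 5 Mb, where 36 of 54 regions (66.7%) were called higher. Whether the differences of these genes go with their position was likewise not tested.

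Of 6 listed genes for lamina and heterochromatin proteins, 3 were called higher (Kdm2a, Banf1 and Hells) and 1 lower, against 33.0% and 5.07% of the chromosome. The lower one was Smarca2, a chromatin remodeller ATPase gene, with OL scores of -1.53, -1.61 and -1.56, against OPC scores of -1.30, -1.35 and -1.32. Kdm2a, a histone H3 demethylase gene, differed by 0.27 and was not called at the same mean and SD. The calls of Kdm2a and Smarca2 were each lost in 5 of the 6 fits without 1 library.

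In the tandem families above 0, a minority of members was called, nearly all of them higher in OL. Of 62 olfactory receptors, 18 were called higher and 0 lower (29.0% and 0.0%), against 33.0% and 5.07% of the chromosome. There were 9 higher without OL library 20, 22 higher and 1 lower without OL library 18, and 19 higher at the same mean and SD. On the other chromosomes, 86 of 1054 olfactory receptors (8.16%) were called higher and 215 (20.4%) lower. When 1 library was left out, these counts ran from 54 to 120 higher and from 144 to 211 lower. Comparisons between these and chromosome 19 use the contrast that chose it, so nothing is read from them. The median difference was 0.16 on chromosome 19 and -0.08 on the others, or 0.17 and -0.04 at the same mean and SD. The members with the largest differences lay close together at the distal end of the cluster. Olfr1495 scored 2.07, 1.82 and 1.99 in OL, against 1.42, 1.21 and 1.38 in OPC, and Olfr1497 scored 1.98, 1.96 and 2.01 in OL, against 1.27, 1.52 and 1.37 in OPC. Neither had overlapping libraries.

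Of 17 Ms4a regions, 7 (41.2%) were called higher and 0 lower, against 33.0% and 5.07% of the chromosome, among them Ms4a4a, Ms4a4b, Ms4a6c and Ms4a6b with differences of 0.39 to 0.49. Ms4a4b scored 1.61, 1.55 and 1.61 in OL, against 1.02, 1.08 and 1.191 in OPC, with no overlap. Of 15 Cyp2c regions, 3 (20.0%) were called higher and 0 lower, a smaller share than that of the chromosome, with 6 higher without OL library 18. Cyp2c65 had the largest difference of these, with OL scores of 1.41, 1.47 and 1.46, against OPC scores of 0.96, 1.14 and 0.97. Of 6 lipases, 2 (33.3%, close to the share of the chromosome) were called higher, Lipo1 and Lipm, with 1 higher without OL library 20 or OPC library 9.

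The Ifit genes, which encode interferon-induced antiviral proteins, lay near 0. All 6 had a lower mean in OL, with a median difference of -0.25, and 3 were called lower and 0 higher, against 5.07% and 33.0% of the chromosome (2 lower without OL library 19, OPC library 8 or OPC library 9, and 4 at the same mean and SD). Ifit3b scored 0.01, -0.11 and -0.21 in OL, against 0.23, 0.35 and 0.18 in OPC. Ifit1bl1 scored 0.04, -0.17 and -0.14 in OL, against 0.20, 0.22 and 0.23 in OPC. In both of these genes the OPC libraries were all above 0 and the OL libraries lay on both sides of it, with library 18 the highest. Ifit2 lay below 0 throughout, at -0.55, -0.73 and -0.73 in OL, against -0.49, -0.50 and -0.34 in OPC. The Ifit regions overlap one another, so they are not 6 independent values.

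The most negative differences were scattered over the middle and distal chromosome. Mamdc2, which encodes an extracellular matrix proteoglycan, scored -1.66, -1.61 and -1.49 in OL, against -0.94, -1.13 and -0.94 in OPC (difference -0.58 ± 0.09, SE). Il33, the gene of an alarmin cytokine, scored -1.33, -1.41 and -1.56 in OL, against -0.94, -0.94 and -0.86 in OPC. Both had every OL library below every OPC library, and both lay below 0 in each condition. Fam189a2, Tectb, an inner ear tectorin gene, Rab11fip2, which encodes a Rab11 effector of membrane recycling, and Glis3, a zinc finger transcription factor gene, differed by -0.45 to -0.52. Smc5, of the SMC5/6 complex, Eno4 and Plekhs1 followed at -0.42 to -0.44. Mamdc2, Smc5 and Fam189a2 lie within the same 1 Mb bin at 23 Mb. Of the 7 regions in that bin, 0 were called higher and 4 lower, against 33.0% and 5.07% of the chromosome.

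Among the largest positive differences outside the lists above was Rpp30, a subunit gene of ribonuclease P, with OL scores of -0.21, -0.64 and -0.44, against OPC scores of -1.25, -1.34 and -1.39. Naaladl1, a peptidase gene, scored -1.89, -2.05 and -1.87 in OL, against -2.58, -2.77 and -2.68 in OPC. Neither gene had overlapping libraries. Cyp26c1 and Cyp26a1, which encode enzymes that degrade retinoic acid and overlap in the table, differed by 0.72 and 0.70. Cyp26c1 scored -0.07, -0.22 and -0.18 in OL, against -1.005, -0.75 and -0.89 in OPC, which put its OL libraries just under 0.

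Of 15 immune genes, 5 (33.3%) were called higher and 2 (13.3%) lower, against 33.0% and 5.07% of the chromosome, so the higher share was that of the chromosome. There were 3 higher without OL library 18, OPC library 9 or OPC library 10, 1 to 3 lower without 1 library, and 3 higher and 2 lower at the same mean and SD. Ch25h, which encodes cholesterol 25-hydroxylase, scored -0.36, 0.08 and -0.27 in OL, against -1.03, -0.84 and -0.61 in OPC. Rela, a subunit gene of NF-kappa B, scored -2.03, -2.26 and -2.20 in OL, against -2.76, -2.61 and -2.77 in OPC. Neither had overlapping libraries, although Ch25h lay near 0 and Rela far below it. Cd274, the gene of the immune checkpoint ligand PD-L1, differed by 0.42, and Il33, given above, was among those lower.

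Homeobox and other transcription factor genes all lay below 0 (22 of 22 regions of 21 genes in each condition), as did 76.9% of the chromosome in OL and 78.7% in OPC. Of the 22 regions, 6 (27.3%) were called higher and 2 (9.09%) lower, the lower ones being 2 overlapping regions of Glis3, against 33.0% and 5.07% of the chromosome. The counts were 3 higher without OL library 20 or OPC library 8, 1 or 2 lower without 1 library, and 3 higher and 4 lower at the same mean and SD. Their median difference was 0.08, or -0.02 at the same mean and SD, so the list had no stable direction. Nkx2-3, a homeobox gene, scored -1.15, -1.30 and -1.30 in OL, against -1.73, -1.70 and -1.50 in OPC. Ehd1, an endocytic recycling gene kept in this list, and Ovol1, a zinc finger repressor gene, were also called higher.

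Of 27 neuronal and channel genes, 4 scored above 0 and 23 below in OL, and 2 above and 24 below in OPC. Below 0 lay 76.9% of the chromosome in OL and 78.7% in OPC. Of the 27, 6 (22.2%) were called higher and 2 (7.41%) lower, against 33.0% and 5.07% of the chromosome, with 1 higher without OPC library 9, 3 without OPC library 8 or 10, 0 to 2 lower without 1 library, and 3 higher and 4 lower at the same mean and SD. Chrm1, a muscarinic receptor gene, scored -0.55, -1.14 and -0.91 in OL, against -1.29, -1.37 and -1.34 in OPC, with no overlap but a wide OL spread. Nrxn2, a neurexin gene, differed by 0.31 and was not called at the same mean and SD. Of 18 genes known from other cell types, such as astrocytes, vessels, muscle and liver, 3 scored above 0 in OL and 2 in OPC, and 7 (38.9%) were called higher and 2 (11.1%) lower, against 33.0% and 5.07% of the chromosome (6 or 7 higher and 0 to 2 lower without 1 library). The largest differences of that list were those of Cyp26c1 and Cyp26a1.

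The 31 miRNA genes scored mostly below 0, with 27 below and 3 above in OL, and 28 below and 2 above in OPC. On the whole chromosome, 76.9% of regions lay below 0 in OL and 78.7% in OPC. Of them, 11 (35.5%) were called higher and 1 (3.23%) lower, against 33.0% and 5.07% of the chromosome, with 6 higher without OPC library 9 and 7 without OL library 19 or 20. At the same mean and SD for each library, 7 were higher and 3 lower. Mir1950 had the largest difference, 1.04, with OL scores of 0.68, 1.00 and 0.92, against OPC scores of 0.04, -0.34 and -0.20. Its OPC level was not separable from 0 (limma adjusted p = 0.0676), and its region lies inside that of Kif20b, so the 2 values share reads. Of 12 tRNA genes, 10 scored below 0 and 2 above in each condition. Of the 12, 1 (8.33%) was called higher and 0 lower, against 33.0% and 5.07% of the chromosome.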

How the data were processed

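Lamin B1 DamID-seq was run on 11 libraries in 4 groups, of which 6, those with Dam-LMNB1, have a deposited score per region. The authors set each score against all Dam libraries of the condition together, per the file headers. The tools and build, per the submitters' processing notes, were cutadapt 1.9.1 and BWA 0.7.17 with mm10. How the scores were computed from reads was not given in the sources used here. An adjusted p-value per region, also deposited by the authors, served only as an alternative. The deposited table held 0 columns of other samples.

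The members, gene lists and tests were chosen with earlier results of these data known. The planned design allowed for values of all 11 libraries; Dam-LMNB1 alone and Dam alone are not analysed here. Scores were left unfiltered and were not transformed. A model with a mean for each condition and a trend in the variance was fitted to all 21534 regions in limma 3.58.1 under R 4.3.3, checked on simulated data, and had a median of 9.42 total degrees of freedom. The means against 0 and their difference were fitted with two-sided p-values, of which those of the difference serve only to describe, and p-values were adjusted by Benjamini-Hochberg over all regions at 0.05. Variation between Dam libraries does not enter these p-values, since scores of a condition have the Dam libraries in common. The share of regions above 0 was compared with an exact sign-flip permutation test over the 6 libraries. Pandas 2.3.3 and SciPy 1.17.1 (Python 3.11.15) were used for summaries.

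Symbols and promoters came from RefSeq tables of GRCm38.p6, which matched 696 of the 710 regions, and whose coordinates were printed for promoters only. Region starts lay within 100 bp of 10000 bp upstream of the gene in 72.9% of 693 checked regions, and ends within 100 bp of 2000 bp downstream in 87.2%. Genes were named by rule: the 5 highest and lowest scores per condition (at most 2 of a family), the 10 largest differences each way among regions with non-overlapping libraries, regions that crossed 0, all 19 oligodendrocyte genes listed (1 more is not reported here) and up to 4 of each other list by size of difference. Pola2, Cdca5, Incenp, Fen1, Smc3 and Add3, and the genes that mark the ends of stretches and bins, were named after their values were seen. Alternatives were quantile normalization, the same mean and SD for each library, leaving out each library, protein-coding genes alone, no variance trend, 1 condition alone, and other bins.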

Additional observations from a re-analysis of the deposited data

How the results depend on the processing

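No paired analysis was possible because OL libraries 18 to 20 and OPC libraries 8 to 10 share no replicate number. The counts of regions above and below 0 stayed within 1.5 times their value in every alternative run, in OL and in OPC. The difference counts did not. Regions higher in OL numbered 234, but 152 after quantile normalization and 152 at the same mean and SD for each library, 145 to 188 when 1 library was left out, and 20 by the authors' deposited adjusted p-value. Regions lower in OL numbered 36, but 69 and 69 after the same scalings, 22 to 42 when 1 library was left out, and 1 by the authors' deposited adjusted p-value. By that deposited value, 21 of the 710 regions passed 0.05 in either direction, against 676 of the 21534 in the whole table. Regions below 0 in every OL library and above 0 in every OPC library numbered 0, but 3 after each scaling and 0 to 3 when 1 library was left out. Bins of 1 Mb that were lower numbered 13, but 23 after each scaling. Bins of 0.5 Mb gave 78 higher and 24 lower, and bins of 2 Mb gave 22 and 8. The share of regions above 0 differed from the rest by -6.62 to -6.40 percentage points when 1 library was left out, with an exact permutation p of 0.0625 each time, the smallest that 5 libraries allow. The cause of these shifts was not tested. At the same mean and SD, calls turned from more higher to more lower in the oligodendrocyte, homeobox and neuronal lists and in the bins at 14 to 32 Mb, as given with their counts. Depth is unknown, so its limit on the scores cannot be given.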
